A study of Mus musculus with 4 samples.

Results

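The genes described here encode the machinery that makes ribosomes: RNA polymerase I (Pol I) and its factors, the small nucleolar ribonucleoproteins (snoRNPs) that modify ribosomal RNA (rRNA), and the proteins that cut and assemble the precursors of both ribosomal subunits. They were found by gene name on the arrays (names beginning with Utp, Nop, Rrp or Nol and a digit, Polr1a to Polr1e, Imp3, Imp4 and 14 further names such as Fbl, Ncl, Npm1 and Myc). The rule found 55 of 36918 gene names, each read by its brightest probe. Of these, 54 were measured, meaning well above background on at least 2 of the 4 arrays, and Nol4 was above background on none.

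Samples were mouse pancreatic cancer cells of the C57BL/6 strain, named K5 and K6 and called lines here. Each line gave 1 control sample under DMSO, the solvent, and 1 sample exposed to halofuginone at 100 nM for 24 hours. Halofuginone blocks prolyl-tRNA synthetase, so uncharged tRNA builds up and the amino acid branch of the integrated stress response is switched on. The title of the series concerns loss of the transcription factor Nrf2 and the enzyme Aldh3a1 in the answer to gemcitabine. The sources used here do not tell what separates K5 from K6, or whether either carries an altered allele. Nor do they speak of separate cultures. The p-values therefore cover only these samples. Their error term is the difference between the K5 and K6 changes, moderated by the spread over all genes, and it may be technical.

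A ribosome starts in the nucleolus, where Pol I copies a long rRNA precursor from ribosomal DNA. Rrn3 makes the polymerase ready to start and Ubtf opens the gene. Box C/D snoRNPs methylate the precursor and box H/ACA snoRNPs turn uridine into pseudouridine in it. The small subunit processome, built around the U3 snoRNP and the Utp proteins, folds and cuts the part that becomes the small subunit, and a separate set of factors matures the large subunit. Myc, a transcription factor often raised in pancreatic cancer, is known to drive many of these genes through the E-box CACGTG. Shortage of amino acids is usually described as slowing ribosome synthesis through mTORC1.

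Total RNA was measured on 4 one-colour arrays of a single slide, with 47.2% to 54.0% of spots well above background per array and more such spots on both halofuginone arrays than on both controls. Levels below are log2 signal relative to the 75th percentile of the same array, so a change in total RNA per cell cannot be seen, and in such bulk samples the share of cells and the RNA per cell cannot be told apart. A probe's level is compared only with the same probe on other arrays. All 6 genes of the stress response listed as a check rose, among them Trib3 by 4.60 and Atf4 by 1.95. All 10 epithelial and ductal markers were measured, including Krt8, Krt18 and Krt19, and 1 of them passed the test: Muc1, a mucin, fell by 3.40. Of markers of other cells, 3 of 7 acinar, 1 of 6 endocrine, 2 of 7 fibroblast and stellate, 5 of 7 immune and 1 of 5 endothelial genes were measured. Those of them that passed the test were the acinar enzyme Cela1, which fell by 2.53, Cd14, which fell by 3.38, Cd68, which fell by 1.79, and Kdr. The last rose by 2.61 with 1 of 2 control arrays above background. The other measured immune markers did not pass and differed in sign, with Ptprc at 0.61, Itgam at -0.29 and Cd3e at -0.83. The part of such cells in the results below was not tested.

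The members' promoters are shown first, as a description, with the motif that Myc binds marked where it was found. Its part in the changes below was not tested. The E-box (CACGTG, which reads the same on both strands) was searched in the RefSeq windows of 250 bases before and 50 bases after each start, on GRCm38.p6. Of the 55 members, 43 matched the promoter table, and 9 of them (20.9%) held the E-box, against 11.2% of the 11602 tested genes that matched and 8.09% of all 27025 genes in the table. The stretches printed are the 250 bases before the start, 5′ to 3′ on the strand of the gene, with the E-box in capitals. Rrn3 (chr16:13780449-13780698, plus strand) held a pair of E-boxes, beginning 215 and 48 bases before the start. Nop2 (chr6:125131633-125131882, plus strand), Utp18 (chr11:93885767-93886016, minus strand) and Nol11 (chr11:107189382-107189631, minus strand) held 1 each, at 60, 20 and 43 bases. Rrp9 (chr9:106477059-106477308, plus strand), among the strongest risers, is printed as a member without the motif.
Rrn3: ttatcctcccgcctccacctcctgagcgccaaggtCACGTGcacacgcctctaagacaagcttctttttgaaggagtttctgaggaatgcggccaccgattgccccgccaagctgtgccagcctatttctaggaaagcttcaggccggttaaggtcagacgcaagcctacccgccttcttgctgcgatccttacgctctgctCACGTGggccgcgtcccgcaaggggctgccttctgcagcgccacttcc
Nop2: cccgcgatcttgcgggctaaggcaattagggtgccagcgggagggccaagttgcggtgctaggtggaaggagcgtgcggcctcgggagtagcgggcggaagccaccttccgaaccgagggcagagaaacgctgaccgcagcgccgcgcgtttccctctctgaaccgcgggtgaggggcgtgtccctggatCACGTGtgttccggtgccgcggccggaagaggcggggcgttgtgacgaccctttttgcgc
Utp18: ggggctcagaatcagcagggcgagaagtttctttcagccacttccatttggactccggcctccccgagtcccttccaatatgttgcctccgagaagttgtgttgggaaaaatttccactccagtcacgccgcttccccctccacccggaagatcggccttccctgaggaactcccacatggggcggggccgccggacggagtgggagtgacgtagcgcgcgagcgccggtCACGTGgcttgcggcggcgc
Nol11: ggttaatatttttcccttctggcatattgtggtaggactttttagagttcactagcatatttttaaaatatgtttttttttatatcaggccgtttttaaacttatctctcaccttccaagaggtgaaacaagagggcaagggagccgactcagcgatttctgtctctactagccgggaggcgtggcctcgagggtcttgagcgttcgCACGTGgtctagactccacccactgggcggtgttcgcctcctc
Rrp9: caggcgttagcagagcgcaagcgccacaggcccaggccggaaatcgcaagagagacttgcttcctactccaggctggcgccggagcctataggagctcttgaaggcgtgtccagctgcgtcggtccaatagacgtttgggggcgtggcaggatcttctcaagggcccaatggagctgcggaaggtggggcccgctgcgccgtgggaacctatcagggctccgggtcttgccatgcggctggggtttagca
The E-box was also found in Imp4 (121 bases before the start), Utp14b (63), Rrp7a (208), Pes1 and Utp20, the last 2 after the start. The median change was 1.06 in the members that held it and 0.91 in those that did not, so members without the motif stood higher as well. Over the tested genes these medians were 0.15 and 0. Of the 8 members past the threshold, Utp18 alone of those matched had an E-box in this window. Rrp7a, which also held the motif, read lower at its brightest probe. The response element of Atf4 and its partners (TGATGNAAN, both strands, no overlap with the E-box) was found in 2 members, Nop14 and Nol12, or 4.65% of those matched, against 3.03% of tested genes and 4.50% of all genes in the table. These matches describe letters in a window and not binding. Members without an entry in the table were Myc, Fbl, Npm1, Tcof1, Bop1, Nol3, Nol4, Nol6, Rrp12, Utp6, Utp11l and Utp23.

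After halofuginone, ribosome synthesis genes stood higher in both lines. Of the 54 measured members, 8 rose, 0 fell and 46 did not pass the test (limma, adjusted over all 19093 tested genes). The 8 include Utp18, which passed the background filter only through its halofuginone arrays. The share of all tested genes called higher was 3.88%, and 14.8% of the measured members were called higher. The share called lower was 5.08% of tested genes and none of the members, of which 1, Nol4l, had an unadjusted p under 0.05 in that direction. At an unadjusted p under 0.05, 31 members were higher, against 17.2% of tested genes. The members' median change was 0.91 on the log2 scale, where the median of all tested genes was 0.01. Their quartiles were 0.43 and 1.34, against -0.57 and 0.60 for tested genes.

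**Figure D1:**
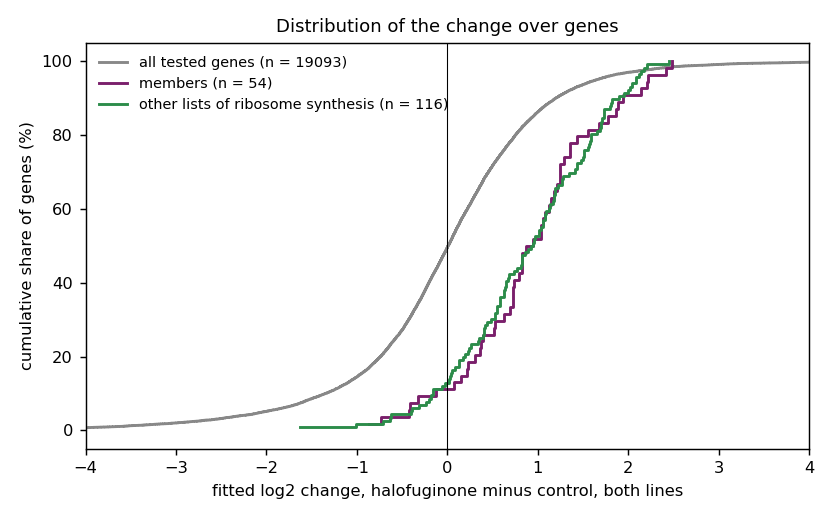
Cumulative share of genes (vertical axis, percent) by fitted log2 change after halofuginone over both lines (horizontal axis), for all 19093 tested genes, the 54 measured members and the 116 measured genes of 6 other lists of ribosome synthesis. Both gene sets lie to the right of the curve of all genes over nearly their whole range, with medians of 0.91 and 0.94 against 0.01.

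The arrays themselves show how far the members shared a direction. For 41 members both halofuginone arrays were above both control arrays, for 6 both were below, and for 7 the groups overlapped. Among tested genes 30.0% had both halofuginone arrays above and 28.6% both below. Members were higher in both lines in 46 cases (38.7% of tested genes), lower in both in 6 (38.0%) and of opposite sign in 2. A rise of at least 2-fold in both lines was seen for 22 members, against 8.62% of tested genes. The calls depend on the fit, which has 1 residual degree of freedom. With no filter on dim probes, without the line as a block, or with the percentile taken over probes detected on all 4 arrays, 0 members were called, as were 0 genes of any kind, while 29, 26 and 25 members had an unadjusted p under 0.05 and a higher level. Leaving out any 1 array, which takes the line out of the fit, also gave 0 calls, with 11 to 19 such members.

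**Figure D2:**
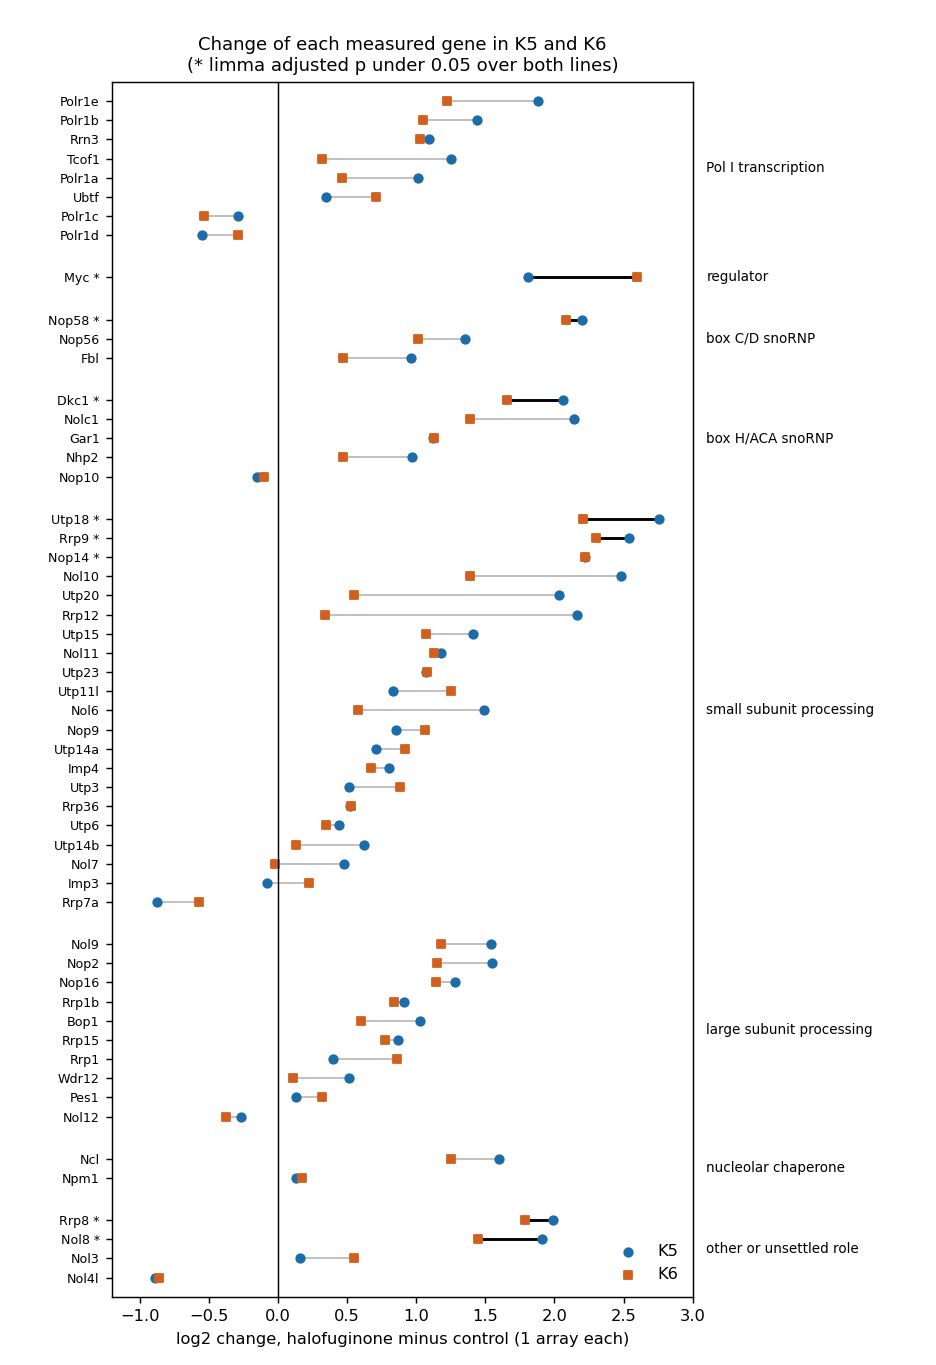
Log2 change after halofuginone in K5 (circles) and K6 (squares) for each of the 54 measured members, grouped by role. Each point is 1 halofuginone array minus 1 control array, the line joins the lines of cells, and a star with a black line marks the 8 members past the threshold, all to the right of 0. Most points lie above 0 in both lines, and Polr1c, Polr1d, Rrp7a, Nop10, Nol12 and Nol4l lie below it in both.

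Myc, the regulator in the set, rose. Its level was 2.41 in control K5, 2.23 in control K6, 4.22 in halofuginone K5 and 4.83 in halofuginone K6. The treated arrays were well clear of the controls, and the change was 2.21 (SE 0.32, 2 lines, limma adjusted p = 0.044), or 4.61-fold. A dimmer second probe of Myc read 2.05 in K5 and 2.71 in K6. The brightest probe lies on mm9 chromosome 15 from 61821417 to 61821476.

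The other genes of the Myc network went in several directions. Of 10 measured genes 3 fell and 0 rose, where 5.08% of tested genes were called lower and 3.88% higher. Mycn, the neural relative of Myc, fell by 3.34 (SE 0.27), from 2.14 to -1.01 in K5 and from -0.41 to -3.95 in K6. Mxd3 and Mxd4, which encode proteins that compete with Myc for Max, fell by 2.41 and 1.94, and Mxd3 was well above background on 1 of 2 halofuginone arrays. Max itself, the shared partner, read 1.25 (adjusted p = 0.071), and Mnt, a repressor that pairs with Max, read 1.08, neither past the threshold. Mxi1, another competitor, read -1.50 (adjusted p = 0.060).

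No gene of Pol I transcription passed the test, where 3.88% of tested genes were called higher. In both lines 6 of 8 were higher, against 38.7% of tested genes, with a list median of 0.76. The subunits that Pol I alone holds read higher. Polr1e, an initiation subunit of Pol I, had levels of -0.70 and 0.14 in the K5 and K6 controls and 1.18 and 1.36 after halofuginone, a change of 1.55 (SE 0.30, adjusted p = 0.058). Polr1b, the second-largest catalytic subunit, went from 0.66 to 2.11 in K5 and from 0.56 to 1.61 in K6, a change of 1.25 (SE 0.27, adjusted p = 0.069). Polr1a, the largest subunit, went from 2.18 to 3.19 in K5 and from 2.60 to 3.06 in K6, a change of 0.74 (adjusted p = 0.17). In all 3 the treated arrays lay above both controls.

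Polr1c and Polr1d, whose products are shared by Pol I and Pol III, lay on the other side of 0. Polr1c went from 3.77 to 3.49 in K5 and from 3.68 to 3.14 in K6 (change -0.41, SE 0.26, adjusted p = 0.34). Polr1d went from 4.69 to 4.14 and from 4.78 to 4.49 (change -0.42, SE 0.26, adjusted p = 0.33). A second Polr1c probe read -0.46, and 2 further Polr1d probes read -0.46 and -0.14. The last of these is annotated to another transcript and changed by -0.37 in K5 and 0.08 in K6, so at that probe the lines differed in sign. Neither gene passed, and the difference between shared and own subunits was not tested. Twistnb, Cd3eap and Znrd1, which encode further Pol I subunits outside the name rule, read 0.53, 0.82 and 1.03 and did not pass either.

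Among the factors that start Pol I, Rrn3 went from 1.87 to 2.96 in K5 and from 2.34 to 3.36 in K6, nearly the same step in each line (change 1.06, SE 0.26, adjusted p = 0.079). Ubtf went from 6.77 to 7.12 and from 6.96 to 7.68 (change 0.53, adjusted p = 0.25), and its 2 dimmer probes read 1.48 and 1.09. Tcof1, treacle, which ties Pol I to rRNA modification, went from 2.18 to 3.43 in K5 but only from 1.81 to 2.13 in K6, so that its groups overlapped (change 0.79, adjusted p = 0.20). Of 8 other measured genes linked to Pol I, 1 rose (12.5%, against 3.88% of tested genes). This was the nucleolar helicase Ddx21, which rose by 1.81 (SE 0.28, adjusted p = 0.047). Taf1d, a subunit of the promoter selectivity factor, read 1.90 without passing (adjusted p = 0.056), whereas its partner Taf1b read -0.16 and the terminator Ttf1 read -0.24.

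In the box C/D snoRNP, Nop58 rose. Nop58 forms the core of the particle with Nop56, and its levels of 3.32 and 3.68 in the K5 and K6 controls became 5.52 and 5.76 after halofuginone. The change was 2.14 (SE 0.26, adjusted p = 0.039), or 4.41-fold, and its 5 probes read from 2.14 to 2.62. The highest reading came from the dimmest probe, well above background on only 2 of the 4 arrays, and the others read up to 2.39. Nop56 went from 4.44 to 5.79 and from 4.68 to 5.69 (change 1.18, adjusted p = 0.073). Fbl, fibrillarin, the methyltransferase, went from 5.79 to 6.75 and from 5.63 to 6.10 (change 0.72, SE 0.28, adjusted p = 0.17). In each of these 3 genes the treated arrays were above both controls, but the step differed between them.

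In the box H/ACA snoRNP, Dkc1, dyskerin, the pseudouridine synthase, rose. It went from 0.21 to 2.27 in K5 and from 0.23 to 1.89 in K6, a change of 1.86 (SE 0.27, adjusted p = 0.045), or 3.64-fold, and its second probe read 1.96. Nolc1, a chaperone of snoRNPs, read 1.77 (adjusted p = 0.053), Gar1 read 1.12 and Nhp2 read 0.72. Nop10, the smallest core protein, hardly moved, with levels of 3.82 and 3.76 in the controls and 3.68 and 3.65 after halofuginone (change -0.13, SE 0.26, adjusted p = 0.75). The core partners of 1 particle therefore had changes from -0.13 to 1.86. Of 9 snoRNP assembly genes outside the name rule, 1 rose (11.1%, against 3.88% of tested genes), and the list's median was 0.03. The riser was the zinc-finger gene Znhit6, by 2.21 (SE 0.26, adjusted p = 0.039). Shq1 and Naf1, which hold dyskerin before the particle is complete, read -1.01 and 1.43, neither past the threshold.

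The small subunit genes held the strongest risers. Of 21 measured, 3 rose (14.3%, against 3.88% of tested genes) and 0 fell, with a median of 1.03. In 17 both treated arrays were above both controls, against 30.0% of tested genes. Rrp9, the U3 snoRNP protein, went from 0.05 to 2.59 in K5 and from 0.37 to 2.67 in K6, a change of 2.42 (SE 0.26, adjusted p = 0.038), or 5.36-fold. Nop14, a scaffold of the processome, went from 0.61 to 2.83 and from 0.45 to 2.67, a change of 2.22 in each line (SE 0.26, adjusted p = 0.039). The steps of both genes were far larger than the gap between the lines. Utp18, of the UTP-B complex, was not well above background in either control. It passed the filter only through the treated arrays, so its call is no separate evidence of a rise. Its levels as read were -5.97 and -4.54 in the controls and -3.21 and -2.34 after halofuginone, with a fitted change of 2.48 (adjusted p = 0.039). Set against the lowest signal that counts as above background on the control arrays, Utp18 was at least 2.71-fold higher, and the p-value does not test that bound. The bound holds for this scaling and probe: with normexp background correction the fitted change of Utp18 was 0.87, and with the mean over its probes 1.37 (adjusted p = 0.13).

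**Figure D3:**
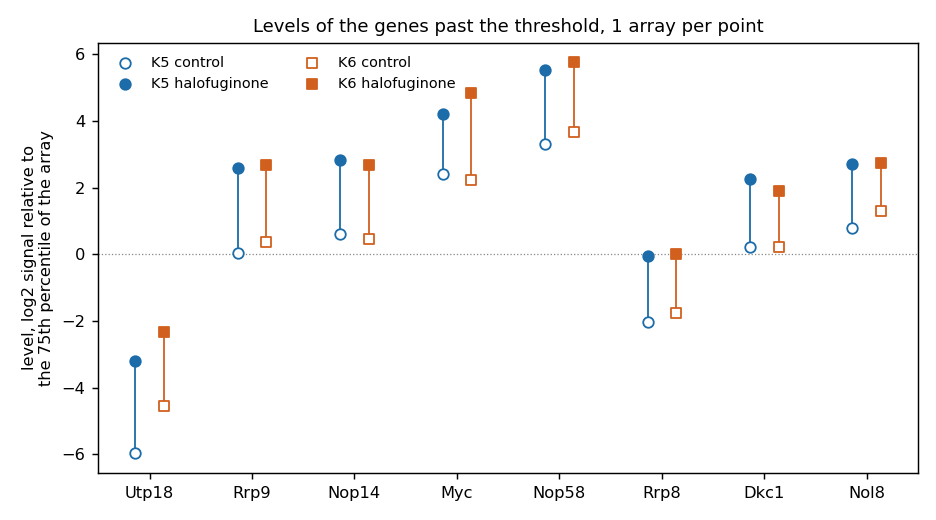
Level of the 8 members past the threshold in every sample (vertical axis, log2 signal relative to the 75th percentile of the array). Open symbols are control and filled symbols halofuginone arrays, circles are K5 and squares K6, and lines join the arrays of 1 line. In every gene both filled symbols lie above both open ones. Levels of different genes come from different probes and are not compared.

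Other small subunit genes had clear steps without passing. Nol10 read 1.94 (SE 0.37, adjusted p = 0.058), with 1 of 2 control arrays above background. Utp15, of the complex that joins Pol I transcription to processing, read 1.24, and Nol11, its partner there, read 1.15. Utp23 read 1.08, Utp11l 1.04, Nol6 1.03, Nop9 0.95 and Utp14a 0.82. Imp3 and Imp4 belong to one complex on the U3 snoRNA, and their brightest probes read 0.07 and 0.73. Rrp7a was the lowest of the group, at 2.93 and 2.63 in the controls and 2.06 and 2.06 after halofuginone (change -0.73, SE 0.27, adjusted p = 0.15). Its dimmer probe, above background on all 4 arrays, hardly moved, at -0.07 in K5 and 0.03 in K6. Utp14b is a retrotransposed copy of Utp14a, so its reading of 0.37 may share signal with the parent gene and is uncertain.

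None of the 10 large subunit genes of the name rule passed, where 3.88% of tested genes were called higher. In 8 both treated arrays were above both controls, against 30.0% of tested genes, and the median was 0.82. Nol9, a kinase that acts when the spacer between the large subunit rRNAs is removed, went from -2.04 to -0.50 in K5 and from -1.08 to 0.10 in K6 (change 1.36, SE 0.27, adjusted p = 0.059). Nop2, an rRNA methyltransferase, read 1.35 (adjusted p = 0.061) and Nop16 read 1.21 (adjusted p = 0.065). The 3 members of the PeBoW complex read less: Bop1 0.82, Wdr12 0.31 and Pes1 0.22, with adjusted p-values of 0.13, 0.47 and 0.59. Rrp1 read 0.63, with the larger step in K6. Nol12 read -0.33 at its brightest probe.

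Both abundant nucleolar chaperones were bright and differed from each other. Ncl, nucleolin, went from 5.08 to 6.68 in K5 and from 5.34 to 6.59 in K6 (change 1.43, SE 0.27, adjusted p = 0.056). Npm1, nucleophosmin, went from 6.83 to 6.96 and from 6.03 to 6.20, a change of 0.15 (SE 0.26, adjusted p = 0.71) that was smaller than the distance between the lines. At other probes, above background on all 4 arrays, Npm1 read 0.20 and 0.74 and Ncl read 2.08. Neither gene passed, and the difference between them was not tested.

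The last group holds names that match the rule but were placed in none of the roles above. Of these, Nol3, Nol4 and Nol4l have no settled part in ribosome synthesis. Rrp8, a nucleolar methyltransferase-like protein, rose by 1.89 (SE 0.26, adjusted p = 0.043), from -2.04 to -0.05 in K5 and from -1.77 to 0.02 in K6. Nol8 rose by 1.68 (SE 0.28, adjusted p = 0.049), from 0.80 to 2.71 and from 1.30 to 2.75. Nol3, an inhibitor of cell death and not a ribosome factor, read 0.36, with its groups overlapping. Nol4l read -0.87 (SE 0.26, adjusted p = 0.11), with both treated arrays below both controls. Without this group 6 of 50 measured members rose, and the median was again 0.91.

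Genes of the same pathway that the name rule leaves out showed a similar shift. Over 6 lists, 27 of 116 measured genes rose (23.3%, against 3.88% of tested genes) and 0 fell, with a median change of 0.94. At an unadjusted p under 0.05, 64 were higher and 2 lower, where 17.2% of tested genes were higher. The lists were written with earlier results of these data known and are not independent support. Genes of these lists that are named without having passed were picked after their values were seen.

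The large and small subunit lists held most of these calls. Among the large subunit genes 16 of 44 rose (36.4%, against 3.88% of tested genes), with a median of 1.01. Nmd3, which carries the large subunit out of the nucleus, rose by 2.45 (SE 0.26, adjusted p = 0.037; with the mean over probes 1.35, adjusted p = 0.062), Rrs1 by 2.17 and Noc3l by 2.12. Nsa2, also of this list, read -1.63 and did not pass (adjusted p = 0.051). Among the small subunit genes 8 of 29 rose (27.6%), with a median of 1.18. Heatr1, which links Pol I transcription to processing, rose by 2.09 (SE 0.33, adjusted p = 0.047), Ltv1, of the late small subunit, by 2.04 and Wdr75 by 1.95.

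The enzymes that trim rRNA held few calls. Of 16 exosome and trimming genes 1 rose (6.25%, near the 3.88% of tested genes), the ribonuclease Dis3, by 2.02 (SE 0.26, adjusted p = 0.041), and the median was 0.55. None of the 10 subunits of RNase MRP and RNase P passed (2 had an unadjusted p under 0.05 and a higher level, where 17.2% of tested genes did), and their median was 0.27.

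The upward shift of the members was larger in K5 than in K6 by its median. The members' median was 1.02 for K5 and 0.85 for K6, and the signed change was higher in K5 for 36 of 54 members, against 46.7% of tested genes. With 1 array per line and condition these differences have no test. Rrp12, of the pre-40S particle, differed most, from 0.89 to 3.05 in K5 and from 1.84 to 2.18 in K6, so that its change in K6 was 1.82 smaller on the log2 scale. Utp20, a large scaffold protein, went from -0.39 to 1.65 in K5 and from 0.94 to 1.48 in K6. Nol10 changed by 2.48 in K5 and 1.39 in K6. In the first 2 genes the control level was higher in K6 and the treated level higher in K5.

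In the other 18 members the signed change was higher in K6. Myc changed by 1.81 in K5 and 2.60 in K6, the largest excess in K6, followed by Rrp1 with 0.40 and 0.86 and Utp11l with 0.83 and 1.25. The stress response genes named above changed more in K6 as well, Trib3 by 3.87 in K5 and 5.34 in K6.

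No member passed the test between the lines themselves. With treatment in the fit, 0 of 54 members were called higher or lower in K6 than in K5 (limma), where 0.0576% of tested genes were called higher and 0.115% lower. At an unadjusted p under 0.05 there were 3 members, Nol9 (K6 minus K5 0.78, SE 0.27, adjusted p = 0.31), Npm1 (-0.79, SE 0.26, adjusted p = 0.29) and Utp18, against 15.5% of tested genes. For Utp18 both control arrays were below background, so no difference between lines is given. The median difference was 0.04, against -0.03 over all tested genes.

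Several members had more than 1 probe, which gives a check on the brightest. Of 26 members with more than 1 probe above the filter, 25 had all probes of 1 sign in the mean change of both lines. The median range of that mean between probes of a gene was 0.32. All probes of Myc, Nop58 and Dkc1 above the filter were higher in both lines. Such agreement of sign, and the count of 25, have a limit, as some probes passed the filter on only 2 of the 4 arrays. They include the dimmest passing probes of Nop58 and Wdr12, at mean levels of -4.88 and -4.31, which were far lower on the control arrays. A probe that passes only through its treated arrays has its sign set by the filter and is no separate evidence. Within single lines further genes had probes of both signs. Polr1a, for example, changed in K6 by 0.46 at its brightest probe and by -0.28 at another. In 4 genes the probes differed by more than 1 on the log2 scale. Nol12 differed in sign, with -0.33 at the brightest probe and 2.84 at a dim one annotated to another transcript. The dimmest passing probe of Wdr12 read 2.64 where the other 4 lay between 0.31 and 0.61. Imp4 ranged from 0.12 to 1.92, and Nol10 from 0.80 to 1.94.

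**Figure D4:**
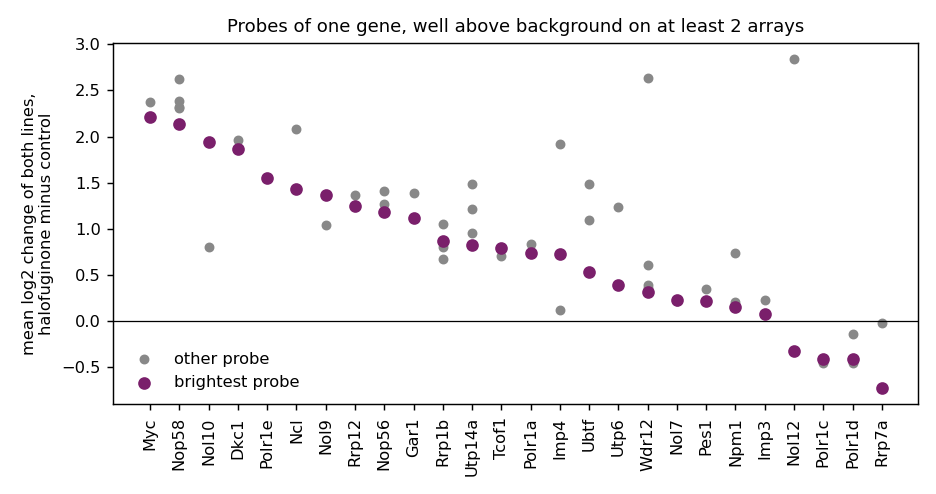
Mean log2 change of both lines (vertical axis) at every probe that passed the background filter, for the 26 members with more than 1 such probe. Large points are the brightest probe of each gene, which the results use, and small grey points the others. Most small points lie near or above the large one, and Nol12, Wdr12 and Imp4 have probes far from it.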

How the data were processed

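Each sample was hybridised to 1 one-colour array. The deposited intensity values are processed signals, corrected for background within each array by Agilent Feature Extraction, version 10.7.1.1 per the file headers and 9.5.1.1 per the submitters' processing notes. The authors' table of processed values (linear intensity, the same median, 32.97434, in each column) served as an alternative, with its normalization not given in the sources used here. Spots set aside as outliers were left out, log2 signal was taken relative to the 75th percentile of the spots that are not controls, and spots of a probe were averaged. The brightest probe stood for a gene, and tests covered the 19093 genes whose probe was detected (Agilent's flag for signal well above background) on 2 or more arrays.

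The fit was limma 3.58.1 in R 4.3.3 with line and treatment as terms. It had 1 residual degree of freedom, to which the moderation added 2.97, with Benjamini-Hochberg adjusted p-values called under 0.05. The smallest change called was 2.8-fold. An exact permutation test of 2 samples against 2 cannot go below p = 0.333 and was not used. The line is a block because samples with the same number come from the same cells, and across genes the difference between lines correlated at r = 0.50 between control and treated arrays. A test of whether the response differed between lines has no residual degrees of freedom, because that difference is itself the residual of the fit. The fit was also run on simulated data with independent errors and no difference in response between lines. That run checks the code and not the error of these arrays. Replicate numbers are those in the titles, and the design text writes F where the titles of treated samples have H.

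Genes given with values were those past the threshold, a set of core members, the extremes of each role, the largest differences between lines and the 3 largest called genes of each other list. Further ones were picked after their values were seen. The members and lists were chosen with earlier results of these data known. Probe coordinates are mm9 per the file headers. Promoters were matched by symbol or synonym to RefSeq windows on GRCm38.p6.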

Additional observations from a re-analysis of the deposited data

Results flagged for a closer look

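The brightest probes of 2 members changed in opposite directions in the lines. Nol7 changed by 0.48 in K5 and -0.02 in K6, so that K6 minus K5 gave -0.50. Imp3 changed by -0.08 in K5 and 0.22 in K6, a difference of 0.29. With 1 array per line and condition these differences were not tested, and both genes had overlapping groups.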

How the results depend on the processing

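The median change of the members was 0.91, and from 0.79 to 0.99 under the other settings of scaling, filter, probe and fit, while the number called moved with the fit. Against 8 members higher and 0 lower, normexp background correction gave 30 higher and 1 lower (Nol4l), the filter on all 4 arrays 22 higher and the intensity trend 23 higher. Calls rose over all tested genes too, from 740 higher to 2575 of 19086, 1909 of 15896 and 2039 of 19093 under these 3 settings. The percentile over probes detected on all 4 arrays and the fit with no filter gave 0, with 25 and 29 at an unadjusted p under 0.05, and moved the median of all tested genes from 0.01 to -0.12 and -0.34. The fit without the replicate block gave 0, with 26. Leaving out 1 array at a time, without the block, gave 0 each time, with 11 to 19. Leaving out a whole line gave medians of 0.85 and 1.02. Quantile normalization and the authors' table lost Nol8, the filter on all 4 arrays lost Utp18, and the mean over probes lost both. Of the 3 largest called genes of each other list, quantile normalization, the authors' table and the mean over probes lost Ddx21, Heatr1, Wdr75 and Mxd3, and the mean over probes also lost Dis3 and Nmd3. The settings that called 0 members called 0 genes of any kind. Nol12 turned to 1.26 with the mean over probes. The percentile over probes, chosen after seeing the data, gave 10. The cause of these differences was not tested. Between lines, 0 members were called under the settings run. The number of arrays limits the precision.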
